A study of Gallus gallus with 20 samples.

Results

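The breed by age interaction in liver is the difference between 2 changes with age, the change from 5 to 10 weeks in Cornish chickens minus the same change in Ogye chickens. It was computed for the 13956 entries named by a gene symbol, of 54062 entries in the deposited count table. Total RNA of liver was sequenced in 4 groups of 5 libraries, namely Ogye and Cornish at 5 weeks and Ogye and Cornish at 10 weeks. Ogye is a Korean native breed with black skin and Cornish a meat breed, and the study asked how their livers differ while their body weights draw apart. The labels give no treatment, no sex, and no word on whether each library is a bird of its own. A p-value therefore measures only the spread between these libraries. Both the interaction and the age changes of single genes are given on the log2 scale, and levels in CPM, counts scaled to 1e+06 per library. A positive interaction means that the level at 10 weeks relative to 5 weeks was higher in Cornish than in Ogye, and a negative one that it was lower. A gene that moved alike in both breeds, or that differed alike between the breeds at both ages, has no interaction.

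The liver of a growing chicken answers growth hormone by making insulin-like growth factor, which drives body growth. It is also the main site of fatty acid synthesis in birds, packs fat into lipoproteins, and burns fatty acids when feed is short. It takes up and clears hormones, drugs and bile acids, and turns surplus nitrogen into uric acid by way of purines.

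Libraries held between 14865637 and 31848768 counts, of which 63.0% to 69.6% fell on the genes with a symbol. The 8 defining hepatocyte genes fixed for the check of the tissue, ALB among them, had counts in all 20 libraries. Replicates 3, 4 and 5 of Ogye at 5 weeks stood apart from the other 17 libraries. On the first principal component, which held 42.2% of the variance, they lay at 94.8, 99.1 and 94.8, against -39 to 5.91 elsewhere. Their log2 levels relative to the median library fell with the span of the gene on the chromosome (Spearman's rho across genes -0.6, -0.61 and -0.6, against -0.15 to 0.36 elsewhere, for 10335 genes, which are not independent replicates). They make up 3 of the 5 libraries of 1 group, so interactions and age changes are given with all 20 libraries and again on the 17 without them. The summed level of 7 genes of the W chromosome, found in birds in females only, was 4.51 (log2 CPM) in replicate 3 of Ogye at 5 weeks and 6.23 to 6.97 in the others.

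The same 4 groups can be combined in other ways, and this bears on every direction given here. A positive interaction is the same as a higher summed level in Ogye at 5 weeks and Cornish at 10 weeks than in Ogye at 10 weeks and Cornish at 5 weeks. With edgeR's quasi-likelihood test and Benjamini-Hochberg adjustment, 2500 of 10697 tested genes had an interaction at an adjusted p under 0.05 (23.4%). The breed difference averaged over both ages was called for 17 genes (0.159%) and the age change averaged over both breeds for 4007 (37.5%). On 17 libraries the calls were 1491 of 10957 for the interaction (13.6%), 0 for the breed average (0.0%) and 1988 for the age average (18.1%). For the breed average on 17 libraries 1204 genes had an unadjusted p under 0.05. By other tools on 20 libraries, DESeq2 called 324 genes for the breed average and 3023 for the interaction, and limma-voom with quality weights called 4388 and 5756. The weights in limma-voom were 0.123 and 0.136 for replicates 1 and 2 of Ogye at 5 weeks. For replicates 3, 4 and 5 they were 1.31, 0.644 and 1.37. In that group limma-voom thus leaned on the 3 libraries that are left out of the fit to 17.

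Single genes showed the same crossing. In 73 genes (0.682% of those tested) the 10 libraries of Ogye at 5 weeks and Cornish at 10 weeks did not overlap the 10 of the other groups, with 56 higher (0.524%) and 17 lower (0.159%). This held for 1 gene when all Ogye libraries were set against all Cornish ones (0.00935%), namely RNF149, and for 213 when the ages were set against each other (1.99%). On 17 libraries the numbers were 165 (1.51%), 5 (0.0456%) and 265 (2.42%). ATP5E, a subunit of the mitochondrial ATP synthase, lies at chromosome 20, bases 11228568 to 11229745 of the build GRCg7b. It lies close to EDN3, in a part of the chromosome known to be duplicated in black-skinned breeds. ATP5E stood at 189, 181, 268, 458 and 273 CPM at 5 weeks and 55.7, 65.6, 67.3, 82.8 and 116 CPM at 10 weeks in Ogye. In Cornish ATP5E was at 70.1, 92.1, 97.8, 90.3 and 75.6 CPM at 5 weeks and 179, 186, 174, 171 and 206 CPM at 10 weeks. Its higher libraries were thus those labelled Ogye at 5 weeks and Cornish at 10 weeks, and the interaction was 2.93 ± 0.32 (SE, adjusted p = 4.8e-05) on 20 libraries and 2.36 ± 0.26 (adjusted p = 6.6e-05) on 17. EDN3 itself, a growth factor of pigment cells, was at 0.689, 0.781, 1.02, 0.132 and 1.12 CPM at 5 weeks and 0.0833, 0, 0.295, 0.908 and 0.544 CPM at 10 weeks in Ogye. In Cornish EDN3 was at 0.194, 0.384, 0.342, 0.441 and 0.281 CPM at 5 weeks and 0.614, 0.577, 0.376, 0.645 and 0.517 CPM at 10 weeks, and its interaction of 1.73 ± 0.79 (SE, adjusted p = 0.11) on 20 libraries and 1.71 ± 0.82 (adjusted p = 0.17) on 17 did not pass. From these counts a breed difference that turns round between the ages and an exchange of breed names at 1 age cannot be told apart. Breed names are therefore those of the labels throughout. The averaged contrasts, the counts of genes without overlap, RNF149, ATP5E and EDN3 were chosen after values were seen.

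**Figure D1:**
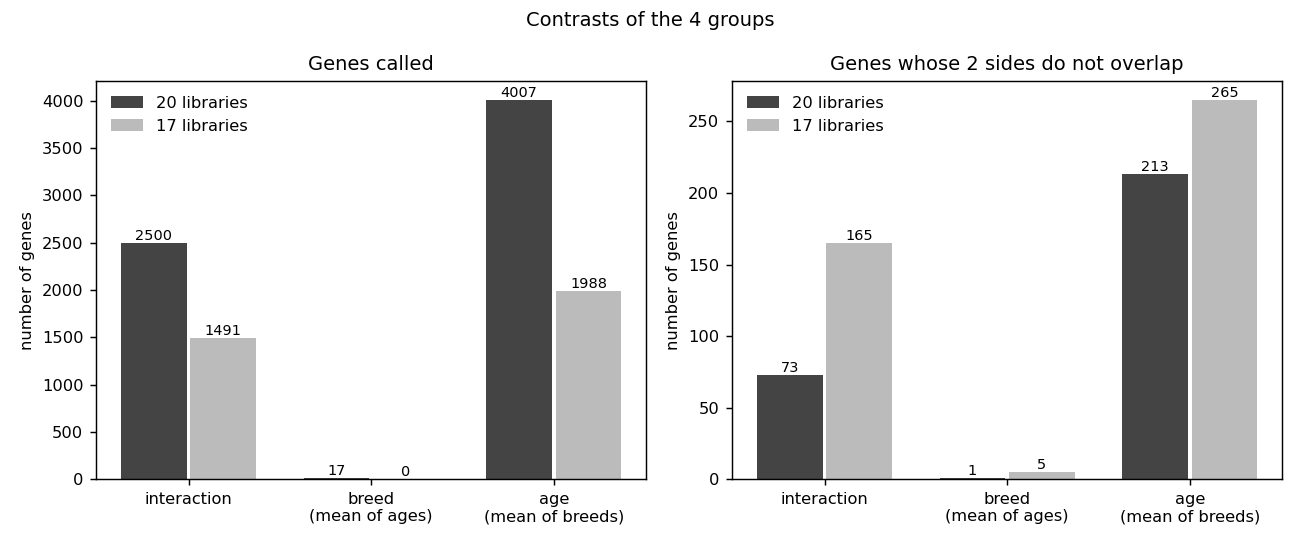
Number of genes (vertical axes, from 0) called at an adjusted p under 0.05 (left) and of genes whose libraries on the 2 sides of a contrast do not overlap (right), for the interaction, the breed difference averaged over ages and the age change averaged over breeds. Dark bars are all 20 libraries and pale bars the 17 without replicates 3, 4 and 5 of Ogye at 5 weeks; on 20 libraries the interaction has 2500 calls and the breed average 17.

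Of the 2500 genes called on 20 libraries, 1418 were higher (13.3%) and 1082 lower (10.1%), and 1716 had a log2 fold change of 1 or more in size. On 17 libraries 856 were higher (7.81%) and 635 lower (5.8%). Called in both fits with the same sign were 1030 genes (9.63%), 576 of them higher (5.38%) and 454 lower (4.24%). They are 41.2% of the calls on 20 libraries and 69.1% of those on 17. Another 1463 kept their sign on 17 libraries without passing, and 7 turned round without being called there. The median log2 fold change over all tested genes was -0.05 in either fit.

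In which breed more age changes were called depended on the 3 libraries. Between 5 and 10 weeks 4931 genes were called in Ogye (46.1%) and 787 in Cornish (7.36%) on 20 libraries, and 1531 (14.0%) and 2219 (20.3%) on 17. The Cornish libraries are the same in both fits. In the gene POSTN the Cornish change was log2 -2.01 in both, with a SE of 0.49 on 20 libraries and 0.22 on 17. On 17 libraries Ogye at 5 weeks keeps only replicates 1 and 2. These counts thus vary with the estimated spread and the number of libraries, and do not show which breed changed more. Of the 1418 genes with a higher interaction, 1118 were called with age in Ogye alone, 135 in Cornish alone and 90 in both with opposite signs. For the 1082 with a lower interaction these counts were 818, 97 and 45. On 17 libraries the 856 higher genes split into 298 called in Ogye alone, 300 in Cornish alone and 148 in both with opposite signs, and the 635 lower ones into 260, 226 and 49. A call in one breed and not in the other is no test of their difference, which is the interaction itself.

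**Figure D2:**
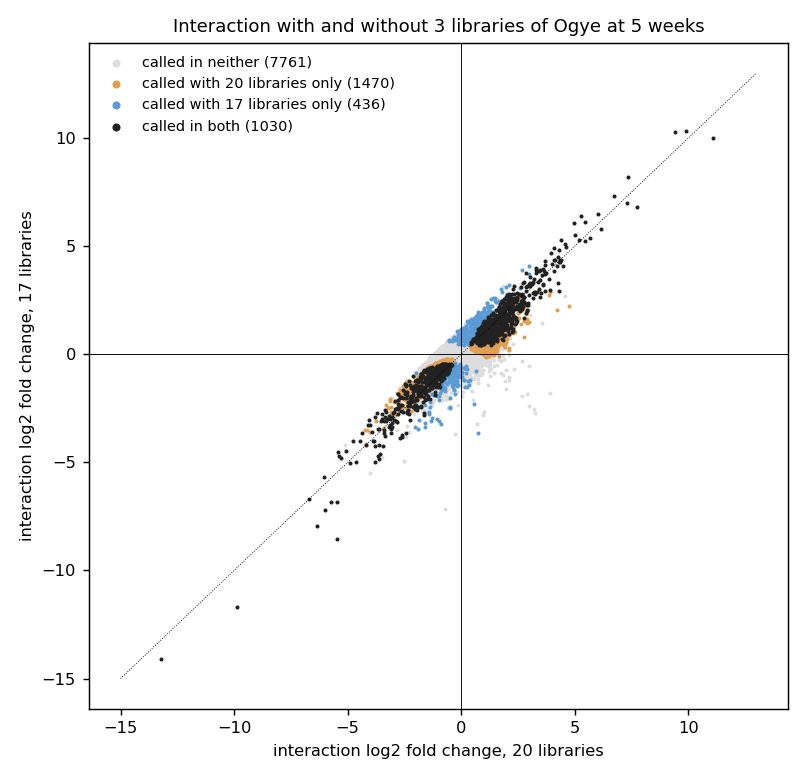
Interaction log2 fold change of each gene on all 20 libraries (horizontal axis) and on the 17 without replicates 3, 4 and 5 of Ogye at 5 weeks (vertical axis), coloured by where the gene was called. The dotted line marks equal values. The 1030 genes called in both have the same sign by definition, and some lie off the line to either side. NDUFA13 was at 2.23 on 20 libraries and 1.01 on 17, and ACHE at -5.47 and -8.57. Genes called with 20 libraries only tend to lie nearer 0 on the vertical axis.

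The genes whose age change was most in favour of Cornish were of several kinds. URAH, a hydrolase that acts just after urate oxidase in the breakdown of uric acid (chromosome 11, bases 18508353 to 18509994), had the lowest adjusted p of the genes named here. It stood at 4.82, 6.51, 13.8, 17.7 and 11.3 CPM at 5 weeks and 0.916, 0.447, 0.517, 0.908 and 0.363 CPM at 10 weeks in Ogye. In Cornish URAH was at 1.02, 0.81, 0.293, 0.749 and 0.328 CPM at 5 weeks and 6.6, 10.5, 7.95, 7.24 and 8.9 CPM at 10 weeks. All libraries of Ogye at 5 weeks and Cornish at 10 weeks were above all others, and the interaction was 7.75 ± 0.56 (SE, adjusted p = 1.8e-07) on 20 libraries and 6.81 ± 0.49 (adjusted p = 1.4e-06) on 17. SULT1B1, a sulfotransferase of phenols and thyroid hormones (chromosome 4, bases 51305859 to 51308157), was at 51.6, 36.5, 58.4, 69.9 and 70.2 CPM at 5 weeks and 17.2, 5.92, 2.44, 14.8 and 15.5 CPM at 10 weeks in Ogye. In Cornish SULT1B1 was at 2.62, 5.24, 4.88, 4.45 and 4.82 CPM at 5 weeks and 48.2, 84.2, 60.7, 58.7 and 55.2 CPM at 10 weeks. The same groups were high without overlap, and the interaction was 6.16 ± 0.53 (SE, adjusted p = 1.2e-06) on 20 libraries and 5.77 ± 0.58 (adjusted p = 5.1e-05) on 17. With age SULT1B1 fell in Ogye (log2 -2.36, adjusted p = 0.00013, and on 17 libraries -1.97, adjusted p = 0.0088) and rose in Cornish (log2 3.8, adjusted p = 2.1e-05, and on 17 libraries 3.8, adjusted p = 4.9e-05).

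APOV1, a small protein of egg yolk lipoproteins that estrogen induces in hen liver (chromosome 1, bases 83462896 to 83465817), had the highest interaction among the genes called in both fits with a proper symbol and at least 1 CPM in their highest group, 11.1 ± 1.41 (SE, adjusted p = 8.3e-05) on 20 libraries and 9.98 ± 1.29 (adjusted p = 0.00025) on 17. Its levels were 7.97, 1.65, 2.6, 34.2 and 5.65 CPM at 5 weeks and 6.91, 4.36, 0.0739, 0.202 and 2.36 CPM at 10 weeks in Ogye. In Cornish APOV1 was at 0.146, 0, 0.293, 0.308 and 0.14 CPM at 5 weeks and 84.7, 221, 43.9, 48.6 and 139 CPM at 10 weeks. Here Cornish at 10 weeks stood above every other library and Cornish at 5 weeks near 0, while the Ogye groups overlapped. The age change of APOV1 in Ogye did not pass (log2 -1.9, adjusted p = 0.069, and on 17 libraries -0.79, adjusted p = 0.6). CYP2C18, a cytochrome P450, was at 159, 773, 191, 1332 and 367 CPM at 5 weeks and 37.2, 143, 36.8, 7.36 and 31.7 CPM at 10 weeks in Ogye. In Cornish CYP2C18 was at 158, 1032, 81.5, 29.6 and 200.1 CPM at 5 weeks and 2230, 1153, 1308, 1217 and 999 CPM at 10 weeks. Only Cornish at 10 weeks was high in every library, with 999 CPM or more, and the interaction was 5.67 ± 1.2 (SE, adjusted p = 0.0034) on 20 libraries and 5.39 ± 1.3 (adjusted p = 0.013) on 17.

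Other leading genes were at or under a few CPM in most libraries. NTNG2, a membrane-anchored netrin, was at 1.57, 1.48, 0.508, 1.32 and 0.52 CPM at 5 weeks and 0.25, 0.447, 0.148, 0.202 and 0.181 CPM at 10 weeks in Ogye. In Cornish NTNG2 was at 0.146, 0.0426, 0.244, 0.0441 and 0.14 CPM at 5 weeks and 0.998, 1.3, 3.51, 1.43 and 1.97 CPM at 10 weeks. Again the pairs of groups did not overlap, and the interaction was 6.01 ± 0.72 (SE, adjusted p = 7.7e-05) on 20 libraries and 6.49 ± 0.71 (adjusted p = 6.3e-05) on 17. HS3ST3B1, which sulfates heparan sulfate, reached 15.4, 21.5, 21.3, 0.0717 and 6.73 CPM in Cornish at 10 weeks, so 1 library was near 0 there, and 0.344, 19.3, 0.127, 0.396 and 5.95 CPM in Ogye at 5 weeks. It stayed under 1 CPM in the remaining 10 libraries, with an interaction of 9.39 ± 1.77 (SE, adjusted p = 0.0017) on 20 libraries and 10.28 ± 1.63 (adjusted p = 0.00096) on 17. C2orf88, an anchor of protein kinase A, had 5.44 ± 0.92 (SE, adjusted p = 0.00082) on 20 libraries and 6.12 ± 0.83 (adjusted p = 0.00037) on 17. Striated muscle genes were among them. MYH1B, a skeletal myosin heavy chain, had 9.89 ± 1.56 (SE, adjusted p = 0.00051) on 20 libraries and 10.32 ± 1.49 (adjusted p = 0.00053) on 17. MYBPC3, a myosin-binding protein of heart muscle, had 7.28 ± 1.73 (SE, adjusted p = 0.0064) on 20 libraries and 7.0 ± 1.99 (adjusted p = 0.028) on 17. MYH1B peaked at 10.1 CPM in Cornish at 10 weeks. It was at most 0.333 CPM in Ogye at 10 weeks and 0.0976 CPM in Cornish at 5 weeks, with several libraries at 0. The size of its interaction is therefore uncertain. Of 15 skeletal muscle genes 5 were tested on 20 libraries, and 2 were higher and none lower, beside 13.3% and 10.1% of all tested genes. On 17 libraries 7 were tested and 3 were higher and none lower, beside 7.81% and 5.8%. So few tested members do not describe the list as a whole. The summed level of the list ran from 72.6 to 100 CPM in Ogye at 5 weeks, 55.5 to 68.6 in Ogye at 10 weeks, 71.3 to 95.1 in Cornish at 5 weeks and 61.1 to 74.9 in Cornish at 10 weeks. In a piece of tissue fewer cells of a type and less RNA per cell cannot be told apart. Of the muscle markers fixed for the check, ACTA1 and CKM are not analysed here and MB was at 0 in 18 of 20 libraries. NDNF, a secreted neurotrophic factor, had an interaction of 7.32 ± 1.51 (SE, adjusted p = 0.0028) on 20 libraries and 8.19 ± 1.15 (adjusted p = 0.00039) on 17.

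**Figure D3:**
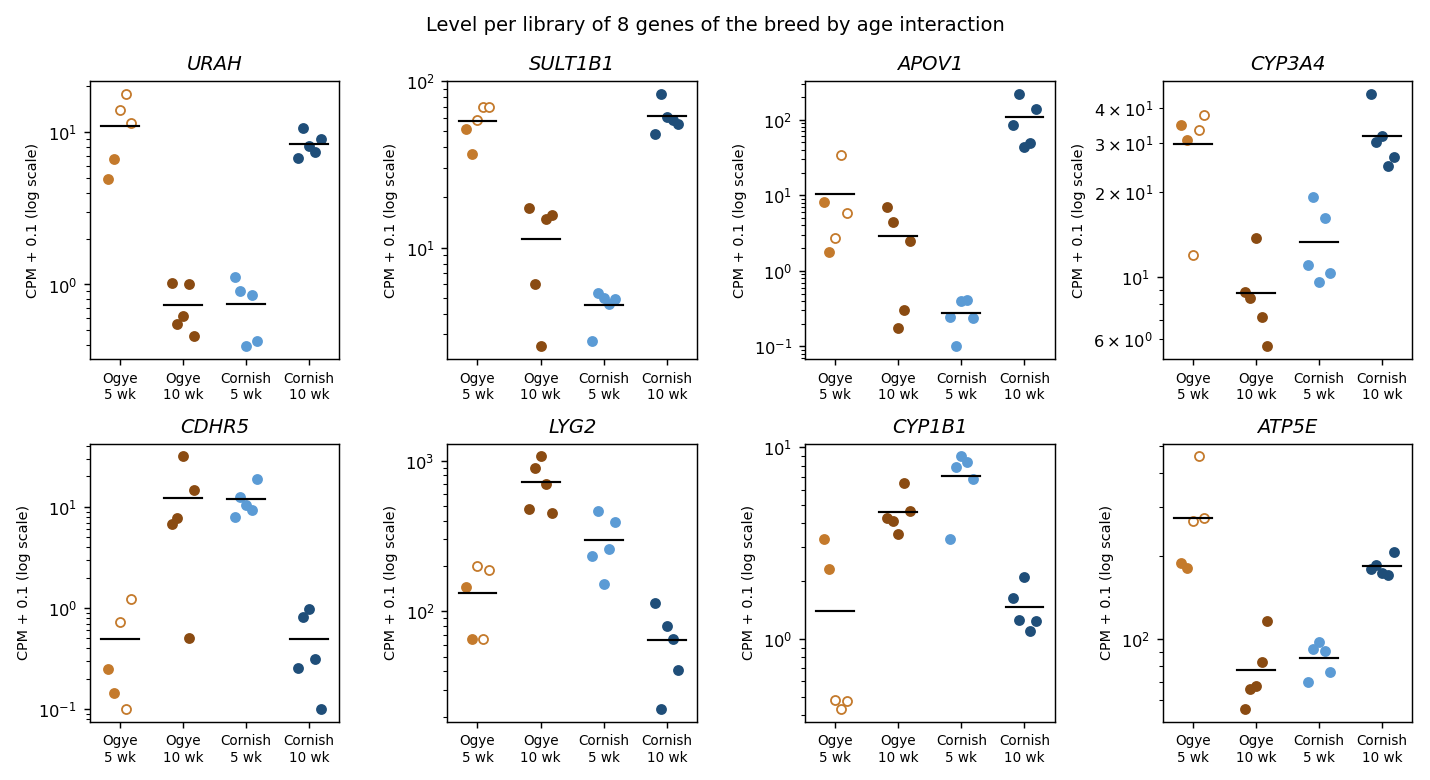
Level of 8 genes in each library (points, CPM plus 0.1 on a log axis) by group, with the group mean as a bar; open points are replicates 3, 4 and 5 of Ogye at 5 weeks. URAH, SULT1B1 and ATP5E do not overlap between the pair Ogye at 5 weeks and Cornish at 10 weeks and the other pair. For APOV1 every library of Cornish at 10 weeks lies above all others, of which the highest, in Ogye at 5 weeks, is at 34.2 CPM.

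On the other side, genes were lower in Cornish at 10 weeks or higher in Ogye at 10 weeks. TRIM7.1, a TRIM family gene on chromosome 16, had the lowest interaction among the genes eligible to be named, those called in both fits with a proper symbol and at least 1 CPM in their highest group, -13.2 ± 2.22 (SE, adjusted p = 0.00082) on 20 libraries and -14.09 ± 3.26 (adjusted p = 0.011) on 17. It was at 0.0984, 0.174, 0.0635, 0.33 and 0.743 CPM at 5 weeks and 0, 6.93, 12, 0.303 and 19.2 CPM at 10 weeks in Ogye. In Cornish TRIM7.1 was at 0.34, 35.9, 43.4, 0.176 and 30.8 CPM at 5 weeks and 0.0768, 0.0721, 0.125, 0 and 0 CPM at 10 weeks. In Ogye at 10 weeks and Cornish at 5 weeks some libraries were near 0 and others above 6 CPM, and no library of the other groups reached 1 CPM. CDHR5, a cadherin-like protein of brush borders (chromosome 5, bases 764619 to 776765), was at 0.148, 0.0434, 0.635, 0 and 1.12 CPM at 5 weeks and 6.66, 7.71, 31.5, 0.403 and 14.5 CPM at 10 weeks in Ogye. In Cornish CDHR5 was at 7.91, 12.3, 10.4, 9.25 and 18.9 CPM at 5 weeks and 0.154, 0.721, 0.876, 0.215 and 0 CPM at 10 weeks. All libraries of Cornish at 5 weeks and 4 of 5 of Ogye at 10 weeks were above 6 CPM, and the interaction was -9.86 ± 1.27 (SE, adjusted p = 9.2e-05) on 20 libraries and -11.7 ± 1.7 (adjusted p = 0.00059) on 17.

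GPR173, an orphan G protein-coupled receptor, was at 0.443, 0.174, 1.52, 0.33 and 1.19 CPM at 5 weeks and 3.66, 6.71, 5.69, 6.86 and 4.63 CPM at 10 weeks in Ogye. In Cornish GPR173 was at 4.22, 1.28, 1.71, 5.24 and 1.36 CPM at 5 weeks and 0.307, 0.0721, 0.751, 0.215 and 0.207 CPM at 10 weeks. Its interaction was -6.01 ± 0.83 (SE, adjusted p = 0.00019) on 20 libraries and -7.21 ± 0.96 (adjusted p = 0.00029) on 17, and with age it rose in Ogye (log2 2.94, adjusted p = 0.00055, and on 17 libraries 4.15, adjusted p = 0.0031). In Cornish it fell (log2 -3.07, adjusted p = 0.0063, and on 17 libraries -3.06, adjusted p = 0.0019). SCUBE2, which helps release Hedgehog ligands, had -6.72 ± 1.15 (SE, adjusted p = 0.00089) on 20 libraries and -6.71 ± 1.51 (adjusted p = 0.0087) on 17. BHLHA15, a transcription factor of secretory cells, had -5.46 ± 0.98 (SE, adjusted p = 0.0012) on 20 libraries and -6.83 ± 1.38 (adjusted p = 0.0045) on 17. SLC22A2, a carrier of organic cations, had -6.06 ± 1.26 (SE, adjusted p = 0.003) on 20 libraries and -5.69 ± 1.57 (adjusted p = 0.024) on 17. ACHE, acetylcholinesterase, had -5.47 ± 1.16 (SE, adjusted p = 0.0034) on 20 libraries and -8.57 ± 1.74 (adjusted p = 0.0053) on 17. STMN3, a microtubule regulator, had -5.73 ± 1.05 (SE, adjusted p = 0.0013) on 20 libraries and -6.86 ± 1.34 (adjusted p = 0.0037) on 17. The transcription factor CREB5 had -5.45 ± 1.1 (SE, adjusted p = 0.0025) on 20 libraries and -4.54 ± 1.16 (adjusted p = 0.017) on 17. CD200L had -6.35 ± 1.56 (SE, adjusted p = 0.0075) on 20 libraries and -7.94 ± 2.11 (adjusted p = 0.021) on 17. The means of SLC22A2, ACHE and STMN3 were at most 1.2 CPM in their highest group, so their counts were small. ACHE was at 0 CPM in replicates 1 and 2 of Ogye at 5 weeks, the only libraries of that group among the 17. The size of its interaction on 17 libraries is therefore no measured ratio.

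Counts of gene lists are to be read beside all tested genes, of which 13.3% were higher and 10.1% lower on 20 libraries, and 7.81% and 5.8% on 17. Of the 22 tested genes of the growth hormone and insulin-like growth factor (IGF) axis, 6 were higher and 1 lower on 20 libraries, and 3 and 1 on 17, with medians of 0.88 and 0.61. Without replicate 2 of Cornish at 5 weeks or replicate 2 of Ogye at 10 weeks 2 were lower, and without replicate 1 of Ogye at 5 weeks 4. The 1 lower gene was GHR, the growth hormone receptor, at 258, 281, 198, 208 and 198 CPM at 5 weeks and 1120.3, 776, 776, 904 and 1173 CPM at 10 weeks in Ogye. In Cornish GHR was at 350.3, 367, 402, 355 and 316 CPM at 5 weeks and 481, 655, 645, 667 and 678 CPM at 10 weeks. Ogye at 10 weeks was above every other library. GHR rose with age in Ogye (log2 2.05, adjusted p = 4e-07, and on 17 libraries 1.83, adjusted p = 0.00015) and less in Cornish (log2 0.8, adjusted p = 0.0058, and on 17 libraries 0.81, adjusted p = 0.002). The interaction was -1.25 ± 0.22 (SE, adjusted p = 0.0012) on 20 libraries and -1.02 ± 0.24 (adjusted p = 0.012) on 17. IGF1, the circulating growth factor that growth hormone induces, went the other way, at 28, 29.8, 15.7, 21.1 and 18.2 CPM at 5 weeks and 14.1, 15.3, 7.24, 9.68 and 3.09 CPM at 10 weeks in Ogye. In Cornish IGF1 was at 16.4, 26.8, 22.5, 21.8 and 27.6 CPM at 5 weeks and 29.1, 29.6, 25.4, 30 and 25.6 CPM at 10 weeks. Ogye at 10 weeks was below every other library, and the interaction was 1.48 ± 0.4 (SE, adjusted p = 0.014) on 20 libraries and 1.83 ± 0.44 (adjusted p = 0.012) on 17. IGF1 fell with age in Ogye (log2 -1.2, adjusted p = 0.0031, and on 17 libraries -1.55, adjusted p = 0.0085). In Cornish its change did not pass (log2 0.28, adjusted p = 0.58, and on 17 libraries 0.28, adjusted p = 0.48).

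SOCS2, a feedback inhibitor that growth hormone induces, and IGFBP2, a binding protein of IGFs, were also lowest in Ogye at 10 weeks. SOCS2 was at 20.2, 32.5, 21.1, 33.5 and 45.8 CPM at 5 weeks and 5.58, 3.8, 4.73, 7.16 and 9.62 CPM at 10 weeks in Ogye. In Cornish SOCS2 was at 18.7, 25.5, 18.2, 14.5 and 14.2 CPM at 5 weeks and 35, 14.9, 12, 15.8 and 29 CPM at 10 weeks. Its 5 libraries of Ogye at 10 weeks were below all others, with an interaction of 2.53 ± 0.44 (SE, adjusted p = 0.001) on 20 libraries and 2.31 ± 0.48 (adjusted p = 0.0058) on 17. IGFBP2 was at 29.9, 30.2, 5.97, 54.2 and 12.6 CPM at 5 weeks and 2.41, 1.01, 0.812, 1.21 and 0.998 CPM at 10 weeks in Ogye. In Cornish IGFBP2 was at 13.2, 19.7, 15.2, 20 and 15.6 CPM at 5 weeks and 18.7, 10.3, 4.32, 12.5 and 20.3 CPM at 10 weeks. It fell with age in Ogye, to 2.41 CPM or less (log2 -4.35, adjusted p = 4.1e-05, and on 17 libraries -4.52, adjusted p = 6e-05). Its change in Cornish did not pass (log2 -0.35, adjusted p = 0.68, and on 17 libraries -0.35, adjusted p = 0.44), and the interaction was 4.0 ± 0.69 (SE, adjusted p = 0.00089) on 20 libraries and 4.17 ± 0.53 (adjusted p = 0.00025) on 17. IGFALS, which holds IGFs in a circulating complex, had 1.03 ± 0.25 (SE, adjusted p = 0.0072) on 20 libraries and 0.64 ± 0.25 (adjusted p = 0.095) on 17, so its call rested on the 3 libraries. IGF2 had 1.26 ± 0.44 (SE, adjusted p = 0.045) on 20 libraries and 1.25 ± 0.53 (adjusted p = 0.12) on 17, and the call was lost when any of 13 single libraries was left out.

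Of 28 insulin signalling genes 3 were higher and 3 lower on 20 libraries, and 7 and 2 on 17, with medians of -0.33 and 0.08. On 20 libraries these are near the shares over all genes, 13.3% and 10.1%. On 17 libraries the 7 higher are above the share of 7.81% and the 2 lower near that of 5.8%, though the counts are small. Without replicate 1 or 2 of Ogye at 5 weeks 5 were lower. IRS1, the adaptor that links the insulin receptor to its kinases, was at 11.1, 13.6, 16.8, 13 and 7.66 CPM at 5 weeks and 30.7, 32.7, 38, 43.1 and 40.6 CPM at 10 weeks in Ogye. In Cornish IRS1 was at 19.4, 36.9, 32.4, 18.4 and 22.2 CPM at 5 weeks and 23.9, 16.6, 30.3, 19.4 and 17.5 CPM at 10 weeks. It rose with age in Ogye (log2 1.57, adjusted p = 9.1e-05, and on 17 libraries 1.59, adjusted p = 0.0031) and overlapped between ages in Cornish. The interaction was -1.83 ± 0.32 (SE, adjusted p = 0.00097) on 20 libraries and -1.84 ± 0.35 (adjusted p = 0.0033) on 17. EIF4EBP1, an inhibitor of translation that the kinase mTOR switches off, was at 164, 158, 205, 411 and 236 CPM at 5 weeks and 71.2, 77.8, 67, 76.4 and 71.2 CPM at 10 weeks in Ogye. In Cornish EIF4EBP1 was at 92.1, 176, 129, 139.6 and 140.1 CPM at 5 weeks and 118, 109, 99.3, 128 and 119 CPM at 10 weeks. It fell in Ogye (log2 -1.69, adjusted p = 4.9e-05, and on 17 libraries -1.14, adjusted p = 0.00088). The interaction was 1.45 ± 0.3 (SE, adjusted p = 0.0032) on 20 libraries and 0.9 ± 0.22 (adjusted p = 0.013) on 17. MTOR itself had -1.05 ± 0.25 (SE, adjusted p = 0.0066) on 20 libraries and -0.6 ± 0.17 (adjusted p = 0.028) on 17. The kinase AKT1 had -1.05 ± 0.25 (SE, adjusted p = 0.0058) on 20 libraries and -0.7 ± 0.23 (adjusted p = 0.052) on 17.

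Genes that burn fatty acids leaned to a higher interaction. Of the 28 oxidation and ketogenesis genes tested, 17 were higher and none lower on 20 libraries, where 13.3% of all genes were higher. On 17 libraries 8 were higher and none lower, and the same 8 were among the 17. The median was 1.18 on 20 libraries and 0.77 on 17. Leaving out replicate 2 of Cornish at 10 weeks, replicate 3 of Ogye at 10 weeks or replicate 4 of Ogye at 5 weeks left 11, 10 and 11 higher, and without replicate 5 of Cornish at 10 weeks 1 was lower. CPT1A, which lets long fatty acids into mitochondria, was at 710.4, 315, 102, 390.1 and 140.2 CPM at 5 weeks and 49.3, 27, 47.3, 39.6 and 36.2 CPM at 10 weeks in Ogye. In Cornish CPT1A was at 105, 138, 60, 116 and 125 CPM at 5 weeks and 105, 136, 132, 133 and 332 CPM at 10 weeks. Ogye at 5 weeks spread from 102 to 710.4 CPM, Ogye at 10 weeks was below all others, and the interaction was 3.68 ± 0.6 (SE, adjusted p = 0.00078) on 20 libraries and 4.31 ± 0.51 (adjusted p = 0.00014) on 17. HADH, a mitochondrial dehydrogenase of the pathway, had 1.12 ± 0.24 (SE, adjusted p = 0.0037) on 20 libraries and 0.71 ± 0.22 (adjusted p = 0.038) on 17. The peroxisomal thioesterase ACOT8 had 2.14 ± 0.41 (SE, adjusted p = 0.0019) on 20 libraries and 1.22 ± 0.34 (adjusted p = 0.026) on 17.

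Of 20 tested genes of fatty acid synthesis 1 was higher and 1 lower on 20 libraries, with a median of -0.31, and 1 and 0 on 17, with a median of -0.41. Over all genes 13.3% were higher and 10.1% lower on 20 libraries. The number lower rested on single libraries, at 0 without any of 9 of them and 5 without replicate 2 of Ogye at 10 weeks. FASN, the fatty acid synthase, was at 5409, 3662, 2869, 2105 and 4447 CPM at 5 weeks and 8944, 1642, 5990.2, 10541 and 17152 CPM at 10 weeks in Ogye. In Cornish FASN was at 5948, 4050, 10537, 11492 and 8931 CPM at 5 weeks and 7902, 7559, 6147, 7664 and 3247 CPM at 10 weeks. Its groups overlapped widely, and its interaction of -1.59 ± 0.62 (SE, adjusted p = 0.067) on 20 libraries and -1.3 ± 0.77 (adjusted p = 0.27) on 17 did not pass in either fit. DESeq2 and limma-voom with quality weights called FASN, as did edgeR without replicate 2 of Cornish at 5 weeks, replicate 2 of Ogye at 10 weeks or replicate 1 of Ogye at 5 weeks, and the adjusted p over 29 alternatives ran from 0.013 to 0.33. THRSP, a lipogenic factor that thyroid hormone induces, had 0.45 ± 0.83 (SE, adjusted p = 0.71) on 20 libraries and 0.0 ± 1.03 (adjusted p = 1.0) on 17. The higher gene was ACACB, the acetyl-CoA carboxylase whose product inhibits CPT1A, with 3.65 ± 0.99 (SE, adjusted p = 0.013) on 20 libraries and 3.84 ± 1.01 (adjusted p = 0.019) on 17. Its counts were small, with means of 1.12 CPM at 5 weeks and 0.114 CPM at 10 weeks in Ogye. In Cornish its means were 0.393 CPM at 5 weeks and 0.517 CPM at 10 weeks. The lower was ACSS2, which makes acetyl-CoA from acetate. It was at 50.5, 56.6, 84.2, 38.5 and 93.2 CPM at 5 weeks and 412, 790.5, 528, 254 and 262 CPM at 10 weeks in Ogye. In Cornish ACSS2 was at 70.5, 53.2, 57.1, 58.9 and 78.2 CPM at 5 weeks and 143, 127, 322, 136 and 102 CPM at 10 weeks. It rose with age in Ogye (log2 2.8, adjusted p = 4.7e-05, and on 17 libraries 3.08, adjusted p = 0.0019) and in Cornish (log2 1.39, adjusted p = 0.02, and on 17 libraries 1.39, adjusted p = 0.0097). The ACSS2 interaction was -1.41 ± 0.47 (SE, adjusted p = 0.037) on 20 libraries and -1.69 ± 0.56 (adjusted p = 0.055) on 17, and it was lost when any of 10 single libraries was left out.

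**Figure D4:**
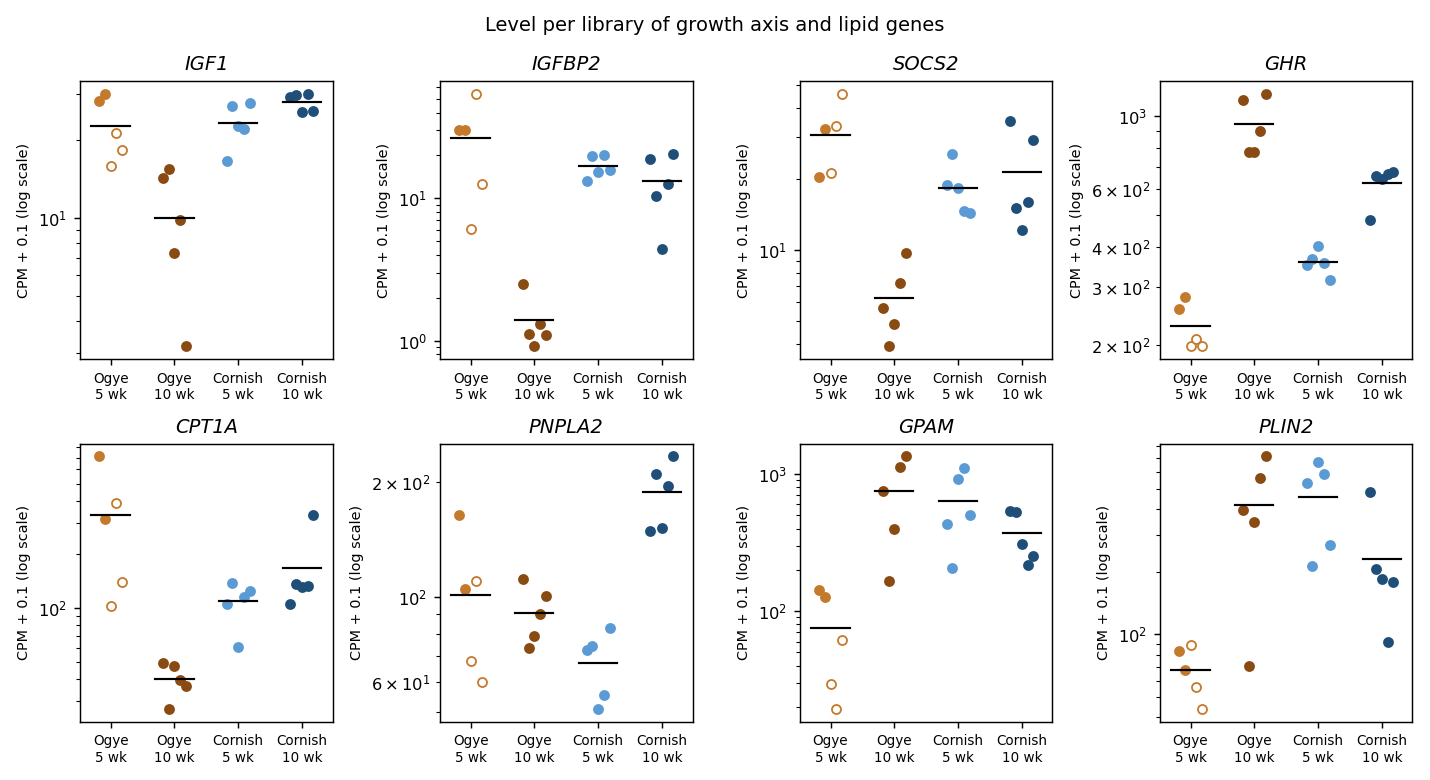
Level of 8 growth and lipid genes in each library (points, CPM plus 0.1 on a log axis) by group, with the group mean as a bar; open points are replicates 3, 4 and 5 of Ogye at 5 weeks. Ogye at 10 weeks lies below every other library for IGF1, IGFBP2, SOCS2 and CPT1A and above every other for GHR.

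Of 20 tested genes of glycerolipid synthesis and lipid droplets 4 were higher and 3 lower on 20 libraries (medians 0.36, and 0.11 on 17 libraries, where 4 of 21 were higher and 3 lower). On 20 libraries the counts are near the shares over all genes, 13.3% higher and 10.1% lower. On 17 libraries they are above those shares, which were 7.81% and 5.8%, though the counts are small. GPAM, the first enzyme of triglyceride synthesis, was at 142, 127, 29.5, 19.2 and 61.1 CPM at 5 weeks and 749.6, 165, 395, 1124 and 1343 CPM at 10 weeks in Ogye. In Cornish GPAM was at 429.6, 206, 923, 1096 and 506 CPM at 5 weeks and 534, 528, 310.5, 218 and 251 CPM at 10 weeks. Ogye rose with age (log2 3.32, adjusted p = 0.00048, and on 17 libraries 2.5, adjusted p = 0.04), with no overlap between its ages, and the interaction was -4.1 ± 0.84 (SE, adjusted p = 0.0028) on 20 libraries and -3.28 ± 0.91 (adjusted p = 0.025) on 17. PLIN2, the coat protein of liver lipid droplets, was at 82.7, 67.4, 88.7, 55.8 and 43.7 CPM at 5 weeks and 395, 70.3, 345, 561 and 715 CPM at 10 weeks in Ogye. In Cornish PLIN2 was at 535, 212, 669.7, 588 and 267 CPM at 5 weeks and 482, 207, 185, 92.2 and 178 CPM at 10 weeks. Its change was called in Ogye in both fits (log2 2.62, adjusted p = 0.00058, and on 17 libraries 2.48, adjusted p = 0.043) and not in Cornish (log2 -0.99, adjusted p = 0.2, and on 17 libraries -0.99, adjusted p = 0.18). The interaction was -3.61 ± 0.69 (SE, adjusted p = 0.0019) on 20 libraries and -3.47 ± 0.92 (adjusted p = 0.021) on 17. FITM2, which helps droplets bud, had -1.48 ± 0.3 (SE, adjusted p = 0.0026) on 20 libraries and -1.34 ± 0.36 (adjusted p = 0.021) on 17. PNPLA2, the lipase that opens triglyceride breakdown, went the other way, at 164, 105, 67.8, 109.7 and 59.7 CPM at 5 weeks and 111, 73.3, 79, 89.9 and 100.2 CPM at 10 weeks in Ogye. In Cornish PNPLA2 was at 72.5, 74.2, 50.8, 55.3 and 82.7 CPM at 5 weeks and 149, 209.7, 151, 195 and 233 CPM at 10 weeks. It rose in Cornish (log2 1.48, adjusted p = 0.0015, and on 17 libraries 1.49, adjusted p = 0.00014) with no overlap between its ages, and the interaction was 1.64 ± 0.33 (SE, adjusted p = 0.0024) on 20 libraries and 2.05 ± 0.29 (adjusted p = 0.00038) on 17.

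Of 23 cholesterol synthesis genes 1 was higher and 4 lower on 20 libraries, beside 13.3% and 10.1% of all genes. On 17 libraries 1 and 1 were, beside 7.81% and 5.8%, and the medians were -0.54 and -0.63. SCAP, the escort of the sterol-sensing transcription factors, was at 38.8, 40.8, 29.6, 18.8 and 30.6 CPM at 5 weeks and 118, 101, 187, 98.7 and 128 CPM at 10 weeks in Ogye. In Cornish SCAP was at 53.7, 67.7, 84.3, 119 and 64.6 CPM at 5 weeks and 94.8, 49.2, 53.3, 28.1 and 19.7 CPM at 10 weeks. It rose in Ogye (log2 2.0, adjusted p = 0.00025, and on 17 libraries 1.67, adjusted p = 0.031) with no overlap between its ages, and the interaction was -2.66 ± 0.48 (SE, adjusted p = 0.0012) on 20 libraries and -2.34 ± 0.59 (adjusted p = 0.016) on 17. HMGCS1, the enzyme before the rate-limiting step, was the 1 higher gene, with 1.51 ± 0.46 (SE, adjusted p = 0.024) on 20 libraries and 1.76 ± 0.54 (adjusted p = 0.04) on 17. FDFT1, squalene synthase, had -2.36 ± 0.7 (SE, adjusted p = 0.02) on 20 libraries and -2.2 ± 0.92 (adjusted p = 0.12) on 17. STARD4, a sterol carrier, had -1.86 ± 0.48 (SE, adjusted p = 0.01) on 20 libraries and -1.52 ± 0.59 (adjusted p = 0.093) on 17. The calls of FDFT1 and STARD4 were lost without the 3 libraries.

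Of 16 tested genes of bile acid synthesis and transport 3 were higher and 2 lower on 20 libraries. On 17 libraries 2 and 2 of 17 genes were, and the medians were 0.54 and 0.13. Shares over all genes were 13.3% and 10.1% on 20 libraries and 7.81% and 5.8% on 17. CYP7A1, which catalyses the slowest step from cholesterol to bile acids, was at 24.9, 26.5, 42.1, 56.3 and 41.7 CPM at 5 weeks and 142, 32.7, 128, 294 and 196 CPM at 10 weeks in Ogye. In Cornish CYP7A1 was at 111, 176, 40.6, 69.3 and 104 CPM at 5 weeks and 76.1, 45.9, 23.3, 16.6 and 4.97 CPM at 10 weeks. Its groups overlapped. With age it rose in Ogye on 20 libraries (log2 2.05, adjusted p = 0.0082, and on 17 libraries 2.63, adjusted p = 0.063), and the interaction was -3.64 ± 0.82 (SE, adjusted p = 0.0048) on 20 libraries and -4.21 ± 1.11 (adjusted p = 0.02) on 17. NR0B2, the nuclear receptor that represses CYP7A1, had the opposite sign, 1.14 ± 0.32 (SE, adjusted p = 0.015) on 20 libraries and 1.28 ± 0.36 (adjusted p = 0.025) on 17. SLC51A, a subunit of the exporter of bile acids into blood, had 1.48 ± 0.39 (SE, adjusted p = 0.011) on 20 libraries and 0.98 ± 0.39 (adjusted p = 0.11) on 17. The exporter ABCC3 had -1.11 ± 0.32 (SE, adjusted p = 0.019) on 20 libraries and -0.7 ± 0.28 (adjusted p = 0.11) on 17. FGF19, a hormone that represses bile acid synthesis, was tested on 17 libraries alone, with -9.37 (adjusted p = 0.026). It was at 0.666, 30, 9.6, 0.403 and 5.26 CPM in Ogye at 10 weeks and under 0.3 CPM in all other libraries, so 3 libraries carried it.

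Of 20 tested lipoprotein and yolk genes 4 were higher and none lower on 20 libraries, beside 13.3% and 10.1% of all genes. On 17 libraries 4 of 21 and none were, beside 7.81% and 5.8%. The medians were 0.60 and 0.14, and the same 4 genes were called in both fits. Besides APOV1 they were APOH, LCAT and LPL. Without replicate 2 of Ogye at 10 weeks 2 were lower, and without replicate 1 of Ogye at 5 weeks 1. APOH, a plasma protein that binds phospholipids, was at 5147, 3988, 5585, 5910 and 5358 CPM at 5 weeks and 4063, 4340.4, 4443, 4605 and 3693 CPM at 10 weeks in Ogye. In Cornish APOH was at 2396, 3039, 3184, 3129 and 2943 CPM at 5 weeks and 6827, 6631, 5849, 6376 and 6337 CPM at 10 weeks. It rose in Cornish (log2 1.12, adjusted p = 0.00022, and on 17 libraries 1.13, adjusted p = 0.00015) with no overlap, and the interaction was 1.42 ± 0.2 (SE, adjusted p = 0.00023) on 20 libraries and 1.23 ± 0.22 (adjusted p = 0.0022) on 17. LCAT, which esterifies cholesterol in plasma, had 1.72 ± 0.4 (SE, adjusted p = 0.0062) on 20 libraries and 1.61 ± 0.47 (adjusted p = 0.033) on 17. LPL, the lipase of circulating lipoproteins, was at 71.9, 70.5, 33.4, 56.2 and 23 CPM at 5 weeks and 11.9, 39, 16, 35 and 6.9 CPM at 10 weeks in Ogye. In Cornish LPL was at 10.1, 51.2, 8.88, 22.7 and 45.1 CPM at 5 weeks and 77.9, 77.3, 83.8, 53.4 and 70.6 CPM at 10 weeks. The interaction of LPL was 2.63 ± 0.7 (SE, adjusted p = 0.011) on 20 libraries and 3.11 ± 0.77 (adjusted p = 0.015) on 17.

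Many enzymes that clear foreign compounds and hormones were higher. Of 42 tested 18 were higher and 1 lower on 20 libraries, beside 13.3% and 10.1% of all genes, and 9 and 1 on 17, with medians of 0.89 and 0.73. The 9 and the 1 were called in both fits, and without replicate 5 of Ogye at 5 weeks 2 were lower. CYP3A4, a broad drug and steroid oxidase, was at 34.8, 30.6, 11.9, 33.4 and 37.7 CPM at 5 weeks and 8.74, 8.27, 13.7, 7.06 and 5.54 CPM at 10 weeks in Ogye. In Cornish CYP3A4 was at 10.9, 19.1, 9.47, 16.1 and 10.2 CPM at 5 weeks and 44.9, 30.1, 31.6, 24.8 and 26.6 CPM at 10 weeks. Apart from replicate 3 of Ogye at 5 weeks, the libraries of that group and of Cornish at 10 weeks were above all others, and the interaction was 3.03 ± 0.41 (SE, adjusted p = 0.00017) on 20 libraries and 3.17 ± 0.38 (adjusted p = 0.00015) on 17. CYP4V2, a fatty acid hydroxylase, had 2.04 ± 0.39 (SE, adjusted p = 0.0019) on 20 libraries and 2.39 ± 0.4 (adjusted p = 0.0014) on 17. The 1 lower gene, CYP1B1, an oxidase of estrogens and aromatic compounds (chromosome 3, bases 31601061 to 31606889), was at 3.2, 2.21, 0.381, 0.33 and 0.372 CPM at 5 weeks and 4.16, 4.02, 3.4, 6.35 and 4.54 CPM at 10 weeks in Ogye. In Cornish CYP1B1 was at 3.2, 7.76, 8.83, 8.2 and 6.74 CPM at 5 weeks and 1.54, 1.15, 2, 1 and 1.14 CPM at 10 weeks. Cornish at 5 weeks and Ogye at 10 weeks were higher than the other groups, which they met at 3.2 CPM, the level of replicate 1 of Cornish at 5 weeks and of replicate 1 of Ogye at 5 weeks. The interaction was -4.07 ± 0.71 (SE, adjusted p = 0.00097) on 20 libraries and -3.06 ± 0.48 (adjusted p = 0.00082) on 17.

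Of 22 tested genes of purine and uric acid metabolism 6 were higher and none lower on 20 libraries, and 3 and none on 17, with medians of 0.20 and 0.28, and 2 were higher in both, beside 5.38% of all genes. Without replicate 1 or 2 of Ogye at 5 weeks 1 was lower. XDH, which makes uric acid, was at 3289, 1629.5, 689, 1419.8 and 929 CPM at 5 weeks and 860, 899, 471, 323 and 739 CPM at 10 weeks in Ogye. In Cornish XDH was at 579.6, 368, 489, 968 and 652 CPM at 5 weeks and 521, 565, 1027, 1479 and 752 CPM at 10 weeks. Its groups overlapped, and the interaction was 1.78 ± 0.57 (SE, adjusted p = 0.029) on 20 libraries and 2.41 ± 0.56 (adjusted p = 0.011) on 17. ATIC, the last step of purine synthesis, had 1.62 ± 0.45 (SE, adjusted p = 0.014) on 20 libraries and 1.48 ± 0.51 (adjusted p = 0.065) on 17. APRT, which salvages adenine, had 1.82 ± 0.44 (SE, adjusted p = 0.0068) on 20 libraries and 1.0 ± 0.39 (adjusted p = 0.097) on 17. Both calls were lost on 17 libraries.

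Of 47 tested genes of glucose and glycogen metabolism 11 were higher and 4 lower on 20 libraries, beside 13.3% and 10.1% of all genes. On 17 libraries 7 and 2 were, beside 7.81% and 5.8%, and the medians were 0.40 and 0.21. The 4 lower fell to 1 or 2 when any of 13 single libraries was left out. LDHB, a lactate dehydrogenase subunit, had 2.58 ± 0.55 (SE, adjusted p = 0.0037) on 20 libraries and 2.22 ± 0.58 (adjusted p = 0.019) on 17. SLC37A4, which carries glucose 6-phosphate to the enzyme that frees glucose, was at 631, 595, 797, 1165 and 846 CPM at 5 weeks and 384, 351, 376, 426 and 486 CPM at 10 weeks in Ogye. In Cornish SLC37A4 was at 391, 568, 500, 546 and 505 CPM at 5 weeks and 666, 680.4, 518, 608 and 583 CPM at 10 weeks. The interaction of SLC37A4 was 1.28 ± 0.25 (SE, adjusted p = 0.0019) on 20 libraries and 0.88 ± 0.21 (adjusted p = 0.013) on 17. G6PC1, that enzyme, was at 1584, 1126, 1327, 2780 and 2103 CPM at 5 weeks and 422, 50.6, 401, 650.1 and 605 CPM at 10 weeks in Ogye. In Cornish G6PC1 was at 429, 596, 734, 964 and 748 CPM at 5 weeks and 629.7, 954, 624, 1005 and 694 CPM at 10 weeks. It fell in Ogye (log2 -2.07, adjusted p = 0.0012, and on 17 libraries -1.67, adjusted p = 0.049), and the interaction was 2.24 ± 0.6 (SE, adjusted p = 0.013) on 20 libraries and 1.84 ± 0.69 (adjusted p = 0.088) on 17. PDK2, which restrains the entry of pyruvate into the citric acid cycle, had 1.82 ± 0.39 (SE, adjusted p = 0.0037) on 20 libraries and 1.44 ± 0.32 (adjusted p = 0.0079) on 17.

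Genes of the protein and energy machinery were called in number on 20 libraries and much less on 17. Of 65 cytosolic ribosomal protein genes 60 were higher and none lower on 20 libraries, with a median of 1.22, and 8 were higher and 1 lower on 17, with a median of 0.36. For 57 nuclear genes of the respiratory chain the counts were 47 and 0 with a median of 1.26, and 4 and 0 with a median of 0.35. With an offset for gene length on 20 libraries they were 31 higher and 1 lower of 65, and 21 higher and none lower of 54. Over all genes 13.3% were higher and 10.1% lower on 20 libraries, and 7.81% and 5.8% on 17. The 4 higher genes of the respiratory chain on 17 libraries are near that share. Members named here had the lowest adjusted p on 20 libraries, so they do not stand for their lists. RPL37 was at 211, 240.4, 529, 523 and 498 CPM at 5 weeks and 112, 125, 119, 116 and 153 CPM at 10 weeks in Ogye. In Cornish RPL37 was at 180.2, 188, 193, 188 and 168 CPM at 5 weeks and 160.3, 163, 147, 166 and 156 CPM at 10 weeks. Replicates 3, 4 and 5 of Ogye at 5 weeks were above every other library, and replicates 1 and 2 came next. Its interaction was 1.47 ± 0.3 (SE, adjusted p = 0.0026) on 20 libraries and 0.64 ± 0.16 (adjusted p = 0.015) on 17. COX7C, a subunit of cytochrome oxidase, was at 105, 105, 371, 285 and 211 CPM at 5 weeks and 59.6, 67.7, 63.7, 69.9 and 83.5 CPM at 10 weeks in Ogye. In Cornish COX7C was at 67.8, 85.4, 85.6, 88.1 and 73.9 CPM at 5 weeks and 93.3, 105, 78.4, 83.9 and 106 CPM at 10 weeks. The interaction of COX7C was 1.86 ± 0.37 (SE, adjusted p = 0.0024) on 20 libraries and 0.83 ± 0.19 (adjusted p = 0.0095) on 17. RPL36 had 1.55 ± 0.33 (SE, adjusted p = 0.0036) on 20 libraries and 0.62 ± 0.16 (adjusted p = 0.02) on 17. RPL37A had 1.53 ± 0.32 (SE, adjusted p = 0.0034) on 20 libraries and 0.75 ± 0.23 (adjusted p = 0.042) on 17. RPL39L had 1.33 ± 0.27 (SE, adjusted p = 0.0028) on 20 libraries and 0.64 ± 0.18 (adjusted p = 0.024) on 17. The complex I subunits NDUFA13, NDUFV1 and NDUFS7 had 2.23 ± 0.44 (SE, adjusted p = 0.0021), 1.8 ± 0.38 (SE, adjusted p = 0.0033) and 1.65 ± 0.36 (SE, adjusted p = 0.0043). On 17 libraries they had 1.01 (adjusted p = 0.028), 0.92 (adjusted p = 0.046) and 0.82 (adjusted p = 0.064). How reads shared by near-identical genes were counted is not given in the sources used here, so values of single ribosomal protein genes are uncertain.

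**Figure D5:**
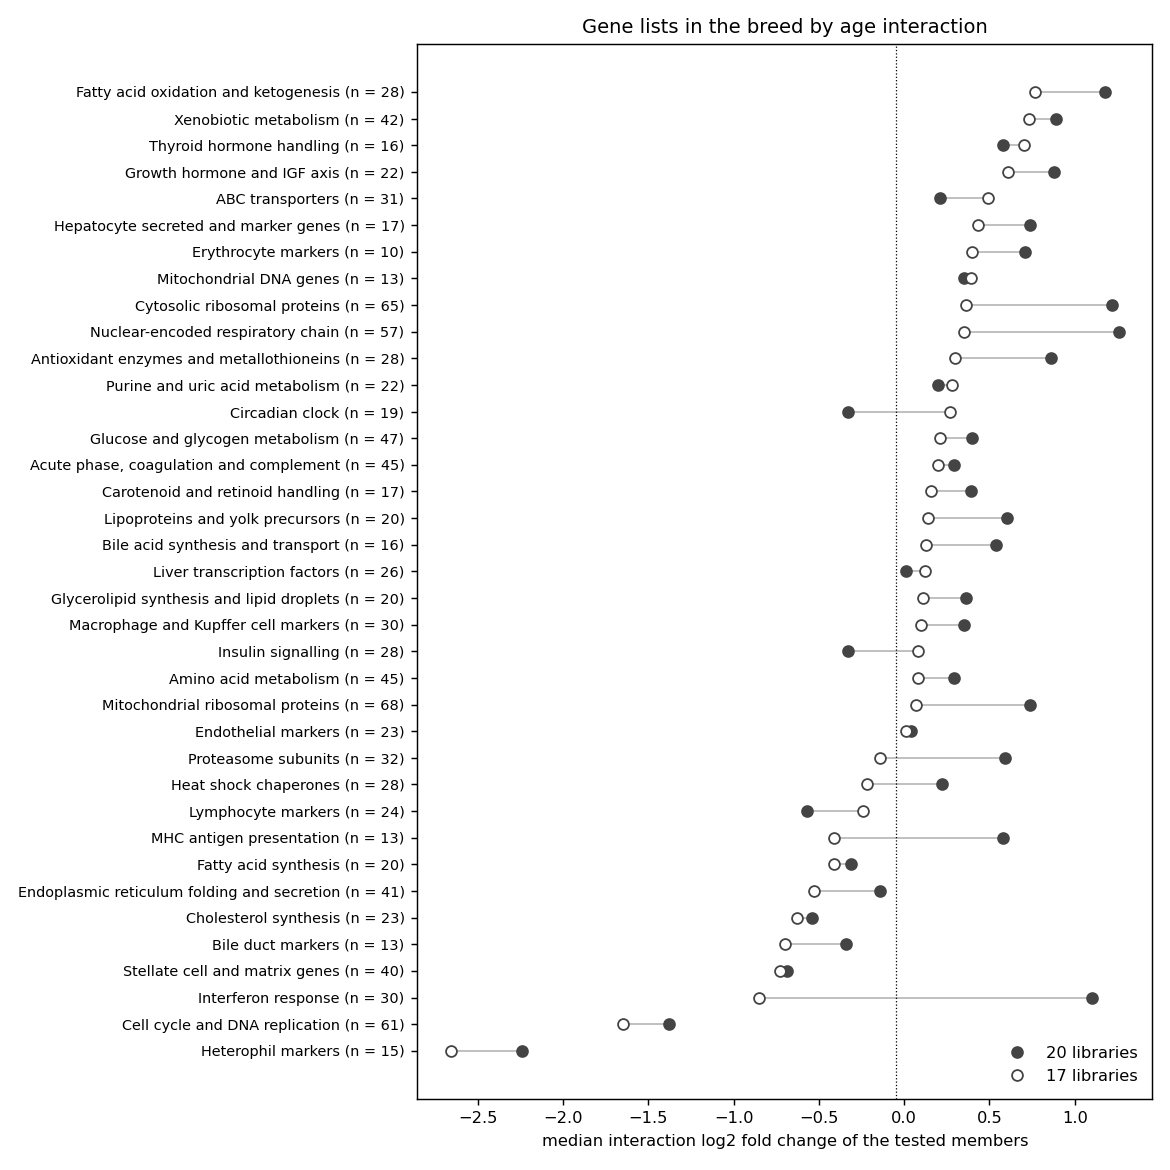
Median interaction log2 fold change (horizontal axis) of the tested members of each gene list with 10 or more of them, on all 20 libraries (filled) and on 17 (open), with the number tested on 20 libraries in brackets and the median of all genes as a dotted line. Ribosomal proteins, the respiratory chain and the interferon response move by far more between the fits than fatty acid oxidation or xenobiotic metabolism.

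The median of interferon response genes changed sign with the 3 libraries. Of 30 tested 1 was higher and none lower on 20 libraries, with a median of 1.10, and none was higher and 4 lower on 17, with a median of -0.85. Their summed level was 1464 to 24915 CPM in Ogye at 5 weeks, 1150 to 2279 in Ogye at 10 weeks, 1191 to 6717 in Cornish at 5 weeks and 993 to 1723 in Cornish at 10 weeks. The number higher was 9 without replicate 1 or 2 of Ogye at 5 weeks, 8 without replicate 1 of Cornish at 5 weeks, and 0 without any of 4 other libraries. IRF8, a transcription factor of myeloid cells and of interferon signalling, was the 1 higher gene, with 1.44 ± 0.46 (SE, adjusted p = 0.03) on 20 libraries and 1.4 ± 0.54 (adjusted p = 0.093) on 17. The call was lost without any of those 4 libraries, replicate 3 of Ogye at 5 weeks, replicates 3 and 4 of Cornish at 5 weeks and replicate 5 of Cornish at 10 weeks.

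Markers of other cells that a piece of liver holds were counted too, and the part of cell composition in the other results was not tested. Of 15 tested heterophil genes, heterophils being the chicken counterpart of neutrophils, 1 was higher and 6 lower on 20 libraries, with a median of -2.24. Of all genes 13.3% were higher there and 10.1% lower. On 17 libraries none of 17 was higher and 3 were lower, beside 7.81% and 5.8%, with a median of -2.66. The summed level was 142 to 399.7 CPM in Ogye at 5 weeks, 539.7 to 1410 in Ogye at 10 weeks, 212 to 503 in Cornish at 5 weeks and 76.3 to 211 in Cornish at 10 weeks. Of 7 defining heterophil genes CATH1 was at 0 in 1 library and the others in none. LYG2, a lysozyme (chromosome 1, bases 132632026 to 132635432), was at 146, 65.1, 199.8, 65.9 and 187 CPM at 5 weeks and 474, 893, 1067, 698 and 448 CPM at 10 weeks in Ogye. In Cornish LYG2 was at 232, 461, 151, 259.9 and 394 CPM at 5 weeks and 113, 22.4, 79.5, 65.8 and 40.7 CPM at 10 weeks. Ogye at 10 weeks was highest and Cornish at 10 weeks lowest, neighbouring groups overlapped, and the interaction was -4.65 ± 0.62 (SE, adjusted p = 0.00012) on 20 libraries and -4.98 ± 0.79 (adjusted p = 0.00095) on 17. AvBD7, a defensin, had -3.41 ± 0.93 (SE, adjusted p = 0.014) on 20 libraries and -3.41 ± 1.17 (adjusted p = 0.063) on 17. LECT2, a chemotactic factor of leukocytes, had -3.0 ± 1.0 (SE, adjusted p = 0.036) on 20 libraries and -2.86 ± 1.23 (adjusted p = 0.13) on 17, and its call was lost when any of 10 single libraries was left out. The transglutaminase TGM3 had -4.45 ± 1.11 (SE, adjusted p = 0.0084) on 20 libraries and -4.01 ± 1.28 (adjusted p = 0.048) on 17. In each of these 3 genes replicate 1 of Ogye at 10 weeks was the highest library, where LYG2 was at 474 CPM. At 448 to 1067 CPM in Ogye at 10 weeks, LYG2 was a large part of the summed level, which thus leans on 1 gene. With age in Cornish LYG2 fell (log2 -2.22 on 20 libraries), while the changes of AvBD7 (0.21), LECT2 (0.29) and TGM3 (-0.29) did not pass. With any of 8 single libraries left out, replicate 1 of Ogye at 10 weeks among them, 3 heterophil genes were lower in place of 6. The 1 higher was lost without any of 14 libraries.

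Of 30 macrophage and Kupffer cell genes 11 were higher and 2 lower on 20 libraries, beside 13.3% and 10.1% of all genes. On 17 libraries 8 and 3 of 31 were, beside 7.81% and 5.8%, and the medians were 0.35 and 0.10. With the offset for gene length on 20 libraries 6 were higher and 2 lower of 28, with a median of 0.18. Their summed level was 4043 to 7768 CPM in Ogye at 5 weeks, 3696 to 4496 in Ogye at 10 weeks, 3332 to 4488 in Cornish at 5 weeks and 4368 to 5249 in Cornish at 10 weeks, and none of 7 defining genes was at 0 in any library. NCF1C, a subunit of the NADPH oxidase of phagocytes, was at 6.1, 6.08, 9.9, 7.86 and 10.9 CPM at 5 weeks and 4.16, 3.58, 4.58, 4.44 and 3.9 CPM at 10 weeks in Ogye. In Cornish NCF1C was at 3.69, 3.67, 3.76, 3.92 and 3 CPM at 5 weeks and 5.99, 5.41, 8.26, 7.32 and 4.45 CPM at 10 weeks. The interaction of NCF1C was 1.78 ± 0.28 (SE, adjusted p = 0.00047) on 20 libraries and 1.36 ± 0.26 (adjusted p = 0.0034) on 17. CTSS, a lysosomal protease, had 1.39 ± 0.27 (SE, adjusted p = 0.0022) on 20 libraries and 0.8 ± 0.18 (adjusted p = 0.0092) on 17. C1QB, a chain of complement C1q, had 1.53 ± 0.32 (SE, adjusted p = 0.0031) on 20 libraries and 0.83 ± 0.24 (adjusted p = 0.03) on 17. With the offset for gene length C1QB had 0.46 (adjusted p = 0.23) on 20 libraries and was not called. MRC2, a collagen receptor that fibroblasts also make, was lower, at 2.46, 3.52, 2.6, 2.05 and 2.23 CPM at 5 weeks and 47.9, 2.57, 39.4, 18.1 and 41.4 CPM at 10 weeks in Ogye. In Cornish MRC2 was at 3.16, 5.41, 5.61, 3.97 and 6.93 CPM at 5 weeks and 3, 6.49, 3.19, 7.53 and 2.79 CPM at 10 weeks. It was above 18 CPM in 4 of 5 libraries of Ogye at 10 weeks and under 8 CPM in all others, with an interaction of -3.65 ± 0.7 (SE, adjusted p = 0.0018) on 20 libraries and -3.44 ± 0.92 (adjusted p = 0.021) on 17.

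Of 40 stellate cell and matrix genes 2 were higher and 8 lower in either fit. Of all genes 13.3% were higher and 10.1% lower on 20 libraries, and 7.81% and 5.8% on 17. The list had medians of -0.69 on 20 libraries and -0.73 on 17, and 5 of the 8 were lower in both. Without replicate 1 of Ogye at 5 weeks 14 were lower, and without any of 8 libraries 1 was higher. The summed level was 1317 to 2131 CPM in Ogye at 5 weeks, 2229 to 2954 in Ogye at 10 weeks, 1383 to 2271 in Cornish at 5 weeks and 2113 to 2594 in Cornish at 10 weeks, and none of 6 defining genes was at 0. POSTN, a matrix protein of activated fibroblasts, was at 22.6, 23, 4, 3.17 and 2.6 CPM at 5 weeks and 37.1, 27.4, 55.8, 44.5 and 19.5 CPM at 10 weeks in Ogye. In Cornish POSTN was at 31.4, 39.1, 26.5, 29.9 and 35.3 CPM at 5 weeks and 7.3, 7.36, 8.83, 7.24 and 9.63 CPM at 10 weeks. It fell with age in Cornish with no overlap (log2 -2.01, adjusted p = 0.02, and on 17 libraries -2.01, adjusted p = 7.6e-05). In Ogye the ages overlapped (log2 1.72, adjusted p = 0.0078, and on 17 libraries 0.7, adjusted p = 0.11), and the interaction was -3.73 ± 0.69 (SE, adjusted p = 0.0015) on 20 libraries and -2.71 ± 0.37 (adjusted p = 0.00037) on 17. PDGFRA, a growth factor receptor of mesenchymal cells, had -3.06 ± 0.57 (SE, adjusted p = 0.0016) on 20 libraries and -2.89 ± 0.64 (adjusted p = 0.0081) on 17. LOX, which cross-links collagen, had -2.43 ± 0.5 (SE, adjusted p = 0.0029) on 20 libraries and -2.01 ± 0.56 (adjusted p = 0.025) on 17. The laminin chain LAMB1 had -1.35 ± 0.3 (SE, adjusted p = 0.0048) on 20 libraries and -1.26 ± 0.37 (adjusted p = 0.034) on 17. These genes were the called members of lowest adjusted p, and the 2 higher genes were not among them. They do not stand for the list, whose summed level in Cornish ran higher at 10 weeks than at 5 weeks, where POSTN fell.

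Of 61 cell cycle genes 1 was higher and 5 lower on 20 libraries, with a median of -1.38, and none of 62 was higher and 3 lower on 17, with a median of -1.65. These counts are under the shares over all genes. Those were 13.3% higher and 10.1% lower on 20 libraries, and 7.81% and 5.8% on 17. Without replicate 4 of Cornish at 5 weeks 8 were lower. Higher were 4 without replicate 1 of Cornish at 5 weeks, and 3 and 2 without replicates 1 and 2 of Ogye at 5 weeks. Their summed level reached 2261 CPM in a library of Cornish at 5 weeks and was at most 722 in the other groups. POLE2, a subunit of DNA polymerase epsilon, was at 11.2, 15.1, 16.9, 17 and 18.4 CPM at 5 weeks and 17.9, 23.9, 19.3, 19.5 and 16.6 CPM at 10 weeks in Ogye. In Cornish POLE2 was at 21.8, 17.4, 19.5, 16.5 and 18.2 CPM at 5 weeks and 10.3, 7.43, 9.52, 12 and 7.66 CPM at 10 weeks. Cornish at 10 weeks was lowest and overlapped Ogye at 5 weeks, with an interaction of -1.3 ± 0.22 (SE, adjusted p = 0.00086) on 20 libraries and -1.56 ± 0.24 (adjusted p = 0.00072) on 17. CDKN2B, an inhibitor of cyclin-dependent kinases, was lower too, at 5.07, 1.48, 15.8, 2.64 and 9.14 CPM at 5 weeks and 10.2, 3.35, 6.43, 8.27 and 17.7 CPM at 10 weeks in Ogye. In Cornish CDKN2B was at 16.2, 15.4, 33.1, 21.3 and 15 CPM at 5 weeks and 2.15, 3.03, 2.32, 2.01 and 1.86 CPM at 10 weeks. The interaction of CDKN2B was -3.58 ± 0.71 (SE, adjusted p = 0.0022) on 20 libraries and -4.64 ± 0.71 (adjusted p = 0.00076) on 17. SMC4, which condenses chromosomes, had -2.25 ± 0.48 (SE, adjusted p = 0.0037) on 20 libraries and -2.08 ± 0.59 (adjusted p = 0.027) on 17. In Cornish at 5 weeks SMC4 was at 83.4 CPM in replicate 1 and at 18.2 to 26.8 CPM in the others. CDKN1A, another inhibitor of the cycle, was the 1 higher gene, with 4.22 ± 1.1 (SE, adjusted p = 0.011) on 20 libraries and 2.03 ± 1.11 (adjusted p = 0.24) on 17.

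The remaining lists are given by their counts, higher and lower, first on 20 libraries, where 13.3% and 10.1% of all genes were called, and then on 17, where 7.81% and 5.8% were. Many of the counts are near those shares. Antioxidant enzymes and metallothioneins had 10 and 1 of 28, then 8 and 2. Acute phase, coagulation and complement genes had 10 and 1 of 45 in either fit. ABC transporters had 6 and 3 of 31, then 5 and 2. Thyroid hormone handling had 3 and 2 of 16, then 4 and 1, and hepatocyte secreted and marker genes had 6 and 0 of 17, then 2 and 0. Mitochondrial ribosomal proteins had 33 and 0 of 68, then 4 and 3. Proteasome subunits had 8 and 0 of 32, then 0 and 1, and genes of mitochondrial DNA had 3 and 0 of 13, then none. Amino acid metabolism had 4 and 3 of 45, then 1 and 2 of 46. Endoplasmic reticulum folding had 1 and 4 of 41, then 3 and 4. Heat shock chaperones had 4 and 2 of 28, then 2 and 3, and aminoacyl-tRNA synthetases 2 and 0 of 8, then none. The circadian clock had 1 and 5 of 19, then 1 and 1. Carotenoid and retinoid handling had 4 and 1 of 17, then 3 and 0 of 18. Liver transcription factors had 3 and 1 of 26, then 2 and 1, and bradykinin and hormone-like receptors 1 and 2 of 7, then 2 and 2 of 9. MHC antigen presentation had 1 and 0 of 13, then 1 and 1. Lymphocyte markers had 2 and 2 of 24, then 1 and 0. Endothelial markers had 4 and 2 of 23, then 3 and 1, and bile duct markers 1 and 1 of 13, then 1 and 2 of 14. Of 10 erythrocyte and 6 pigmentation genes edgeR called none in either fit. On 20 libraries 4 and 2 of them had an unadjusted p under 0.05, DESeq2 called 2 and 0, and limma-voom with quality weights 4 and 3. Many of these small counts moved by over 1.5 times when 1 library was left out. The number higher then ran from 5 to 23 for proteasome subunits, 25 to 52 for mitochondrial ribosomal proteins, 1 to 6 for genes of mitochondrial DNA and 2 to 9 for amino acid metabolism. It ran from 3 to 6 for ABC transporters, 3 to 8 for hepatocyte genes and for heat shock chaperones, 2 to 6 for liver transcription factors and 1 to 4 for endoplasmic reticulum folding. For MHC antigen presentation and for aminoacyl-tRNA synthetases it ran from 1 to 3, for the circadian clock from 1 to 2, for erythrocyte genes from 0 to 3 and for pigmentation from 0 to 1. The number lower ran from 4 to 8 for endoplasmic reticulum folding, 3 to 6 for ABC transporters, 2 to 7 for lymphocyte markers and 2 to 5 for endothelial markers. It ran from 1 to 4 for acute phase genes and for thyroid hormone handling, 0 to 2 for heat shock chaperones, 1 to 2 for carotenoid handling, liver transcription factors and bile duct markers, and 0 to 1 for hepatocyte genes, MHC antigen presentation and pigmentation. The highest of these numbers came without replicate 1 or without replicate 2 of Ogye at 5 weeks. They were 19 and 23 for proteasome subunits, and 51 and 52 for mitochondrial ribosomal proteins.

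Some genes were called on the 17 libraries alone. Of those named here, only HSPB9 and EPHA1 were tested on 20 libraries, without being called. HAPLN1, ALDH1L2, MYH1C, COL25A1, MAP1LC3C and FGF19 were not tested on 20 libraries, so for them the fits cannot be compared. The expression filter depends on the size of the smallest group, which fell from 5 libraries to 2. Genes high in few libraries could thus enter on 17 libraries. Among the highest were HAPLN1, a link protein of cartilage matrix, with 12.22 (adjusted p = 0.0077), ALDH1L2, a mitochondrial folate enzyme, with 5.8 (adjusted p = 0.038), the myosin heavy chain MYH1C with 4.36 (adjusted p = 0.026) and the collagen COL25A1 with 4.13 (adjusted p = 0.0046). HAPLN1 was at 0, 3.47, 0.508, 0.661 and 0 CPM at 5 weeks and 0, 0, 0, 0.101 and 0 CPM at 10 weeks in Ogye. In Cornish HAPLN1 was at 0, 0.0426, 0, 0 and 0 CPM at 5 weeks and 0, 3.17, 0, 0 and 3 CPM at 10 weeks. Single libraries at about 3 CPM carried it, 1 of the 2 that remained of Ogye at 5 weeks and 2 of Cornish at 10 weeks. COL25A1 was at 3.44 and 1.56 CPM in replicates 1 and 2 of Ogye at 5 weeks and at most 0.645 CPM elsewhere. ALDH1L2 reached 4.54 and 1.44 CPM in replicates 2 and 3 of Cornish at 10 weeks and at most 0.892 CPM elsewhere. For MYH1C the levels were 0.154, 1.66, 2, 1 and 0.31 CPM in Cornish at 10 weeks and at most 0.59 CPM elsewhere. The lowest were FGF19, MAP1LC3C, an autophagy protein, with -6.76 (adjusted p = 0.038), the small heat shock protein HSPB9 with -3.63 (adjusted p = 0.021) and the ephrin receptor EPHA1 with -3.44 (adjusted p = 0.032). In Ogye at 5 weeks MAP1LC3C was at 0 CPM in replicates 1 and 2 and at 4.06, 0.396 and 1.56 CPM in replicates 3, 4 and 5. It was at most 0.777 CPM in Cornish at 5 weeks. The size of its value on 17 libraries is therefore no measured ratio. HSPB9 was at 56 CPM in replicate 3 of Ogye at 5 weeks and at 0.541 and 0.781 in replicates 1 and 2, and on 20 libraries its value was 0.74 ± 1.34 (SE, adjusted p = 0.7).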

How the data were processed

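Liver RNA of 2 breeds, Ogye and Cornish, taken at 5 or 10 weeks in 5 libraries a group, was prepared with an RNeasy kit and a stranded total RNA kit with depletion of ribosomal and globin RNA, per the labels' protocols. The deposited file holds raw counts per gene, made by the authors with STAR on the build GRCg7b and featureCounts after FastQC and MultiQC, per the submitters' processing notes. The sources used here give no versions, no strand setting and no assembler for 40097 entries with an identifier in place of a gene symbol. Without the strand setting, overlapping and antisense genes cannot be told apart. Those entries were left out, and with them 9 with no name at all, which held 0.0126% to 0.0593% of a library's counts. The named genes held 63.0% to 69.6% of a library's counts. Of 13956 named genes 12769 matched RefSeq's table of GRCg7b by symbol, which gave positions.

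Genes were kept by filterByExpr, scaled by TMM factors and fitted with 1 mean per group by robust quasi-likelihood in edgeR 4.0.16 (R 4.3.3), 2-sided, with Benjamini-Hochberg adjustment over all tested genes at 0.05. CPM, the counts scaled to 1e+06 per library, use the TMM library sizes. A SE is the size of a log2 fold change over the square root of F. Library totals ran from 14865637 to 31848768 counts, and no 2 columns were identical. The procedure was tested on simulated data. Those data had neither outlying libraries nor a trend with gene length, so that test does not cover these features of the real libraries.

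The contrast, the gene lists, the left-out libraries and the alternatives (DESeq2 1.42.0, limma-voom of limma 3.58.1 and others given at the end) were chosen with earlier results of these data known. Named genes are the 10 highest and 10 lowest interactions among genes called on 20 and on 17 libraries with the same sign, at least 1 CPM in the highest group and a proper symbol in place of a locus number. Added were, for each list described, up to 4 called members of lowest adjusted p, up to 4 genes in each direction called on 17 libraries alone, and IGF1, IGF2, GHR, IGFBP2, FASN, CYP7A1, THRSP, APOV1, URAH, SULT1B1 and CPT1A. A gene that the rule names is not reported here. Of 41 lists, 18 are described by their genes, a choice made once their counts were seen. No test was run on a list.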

Additional observations from a re-analysis of the deposited data

Results flagged for a closer look

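For 85 of the genes named above the change with age differed between the breeds as labelled, by the interaction test itself (edgeR's quasi-likelihood test, adjusted p under 0.05 on 20 libraries). Values are interaction log2 fold changes, positive where the change was higher in Cornish. Higher with and without replicates 3, 4 and 5 of Ogye at 5 weeks were first APOV1 11.1, MYH1B 9.89, HS3ST3B1 9.39, URAH 7.75, NDNF 7.32, MYBPC3 7.28, SULT1B1 6.16, NTNG2 6.01, CYP2C18 5.67, C2orf88 5.44, IGFBP2 4.0 and CPT1A 3.68. They were followed by ACACB 3.65, CYP3A4 3.03, LPL 2.63, LDHB 2.58, SOCS2 2.53, NDUFA13 2.23, ACOT8 2.14, CYP4V2 2.04, COX7C 1.86, PDK2 1.82 and NDUFV1 1.8. Next came NCF1C 1.78, XDH 1.78, LCAT 1.72, PNPLA2 1.64, RPL36 1.55, RPL37A 1.53, C1QB 1.53, HMGCS1 1.51, IGF1 1.48, RPL37 1.47, EIF4EBP1 1.45 and APOH 1.42. The lowest of these were CTSS 1.39, RPL39L 1.33, SLC37A4 1.28, NR0B2 1.14 and HADH 1.12. Higher with the 3 libraries, and not called without them, were CDKN1A 4.22, G6PC1 2.24, APRT 1.82, NDUFS7 1.65, ATIC 1.62, SLC51A 1.48, IRF8 1.44, IGF2 1.26 and IGFALS 1.03. Lower with and without the 3 libraries were first TRIM7.1 -13.2, CDHR5 -9.86, SCUBE2 -6.72, CD200L -6.35, SLC22A2 -6.06, GPR173 -6.01, STMN3 -5.73, ACHE -5.47, BHLHA15 -5.46, CREB5 -5.45, LYG2 -4.65 and TGM3 -4.45. These were followed by GPAM -4.1, CYP1B1 -4.07, POSTN -3.73, MRC2 -3.65, CYP7A1 -3.64, PLIN2 -3.61, CDKN2B -3.58, PDGFRA -3.06, SCAP -2.66, LOX -2.43, SMC4 -2.25 and IRS1 -1.83. Nearer to 0 lay FITM2 -1.48, LAMB1 -1.35, POLE2 -1.3, GHR -1.25 and MTOR -1.05. Lower with the 3 libraries, and not called without them, were AvBD7 -3.41, LECT2 -3.0, FDFT1 -2.36, STARD4 -1.86, ACSS2 -1.41, ABCC3 -1.11 and AKT1 -1.05.

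In 26 of 356 groups of 5 libraries of a named gene, 1 library was far from the other 4 on the scale of log2(CPM + 0.5), its gap to the nearest being over 0.71 of the range of the group. Chance alone gives about 1 such group in 20, so these values are listed without weight. Replicate 3 of Ogye at 5 weeks stood apart in CYP3A4 at 11.9 CPM and MYH1B at 0 CPM. Replicate 4 of Ogye at 5 weeks stood apart in PDK2 at 16.4 CPM. Replicate 2 of Ogye at 10 weeks stood apart in ACACB at 0.224 CPM, G6PC1 at 50.6 CPM, LDHB at 614 CPM, NDNF at 0.559 CPM and THRSP at 43.5 CPM. Replicate 5 of Ogye at 10 weeks stood apart in ABCC3 at 6.62 CPM and MYBPC3 at 3.81 CPM. Replicate 1 of Cornish at 5 weeks stood apart in APOH at 2396 CPM, CYP1B1 at 3.2 CPM, LDHB at 287 CPM, SMC4 at 83.4 CPM and SULT1B1 at 2.62 CPM. Replicate 3 of Cornish at 5 weeks stood apart in HSPB9 at 6.73 CPM. Replicate 4 of Cornish at 5 weeks stood apart in MYBPC3 at 0.264 CPM. Replicate 5 of Cornish at 5 weeks stood apart in NCF1C at 3 CPM and NR0B2 at 52.1 CPM. Replicate 1 of Cornish at 10 weeks stood apart in GHR at 481 CPM and TGM3 at 0.922 CPM. Replicate 2 of Cornish at 10 weeks stood apart in MYBPC3 at 0 CPM. Replicate 3 of Cornish at 10 weeks stood apart in ACSS2 at 322 CPM. Replicate 4 of Cornish at 10 weeks stood apart in SLC22A2 at 0.932 CPM. Replicate 5 of Cornish at 10 weeks stood apart in CPT1A at 332 CPM and FASN at 3247 CPM.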

How the results depend on the processing

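The number of interaction calls moved by over 1.5 times under 3 settings. Without the 3 libraries 1491 genes were called (856 higher, 635 lower), with limma-voom and quality weights 5756 (2755 higher, 3001 lower), and with the W-linked sum as a covariate 1148 (702 higher, 446 lower). Other settings gave 2220 to 3023. The W-linked sum was 6.53 to 6.97 (log2 CPM) in Ogye at 10 weeks and 6.5 to 6.59 in Cornish at 5 weeks. It was 4.51 to 6.54 in Ogye at 5 weeks and 6.23 to 6.42 in Cornish at 10 weeks. The sum thus also differed along the interaction. In a fit with 1 mean per group the covariate is fitted on the spread within groups. That spread was widest in Ogye at 5 weeks, where replicate 3 was at 4.51. How far the lower count rests on that library, or on the tie between the sum and the contrast, was not tested. Age changes in Ogye numbered 2808 with the covariate and 1531 without the 3 libraries, and those in Cornish 1340 with DESeq2, 2845 with limma-voom and 2219 without the 3 libraries. Leaving out each library in turn gave 1932 to 3599 interaction calls, 1088 to 2007 higher and 844 to 1667 lower, the last without replicate 1 of Ogye at 5 weeks. Age changes then numbered 3949 to 5850 in Ogye and 379 to 1048 in Cornish. The Cornish count fell by over 1.5 times, to 442, 379, 459 and 498, without replicates 1, 2, 3 and 4 at 10 weeks and to 409, 473 and 501 without replicates 1, 3 and 4 at 5 weeks. The cause was not tested.

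Of the 85 named genes called on 20 libraries, 58 were called under every alternative in which they were tested, 28 or 29 a gene. Most of them were named for a call in both fits or for a low adjusted p, so this share was partly fixed by the choice. It does not stand for all 2500 calls, of which 41.2% were also called on 17 libraries. HSPB9 turned from 0.74 to -3.63 without the 3 libraries. TRIM7.1, CD200L and HS3ST3B1 were not called by limma-voom, nor CREB5, SLC22A2, STMN3, TGM3 and MTOR with the W-linked covariate, nor C1QB and NR0B2 with the gene length offset. XDH was lost by limma-voom and without any of 4 single libraries. Of all libraries, limma-voom gave the lowest weights, 0.123 and 0.136, to replicates 1 and 2 of Ogye at 5 weeks.

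With the replicate number as a block 2463 genes were called, 1361 higher and 1102 lower. No pairing of libraries by number was seen. Of 30 same-numbered pairs 7 had a correlation of deviations over 0.1 (range -0.24 to 0.28), and 3 of 20 libraries correlated best with their own number. Such correlations over all genes cannot exclude a batch or family shared by number. The breed average was called for 1 gene with the block, with the gene length offset for 50 and with the covariate for 39.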
